A study of Mus musculus with 6 samples.

Results

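Imprinted growth genes were examined in fat lying under the skin of the groin (inguinal white adipose tissue, iWAT) of mice on a high-fat diet. The set was 10 named genes (Nnat, Peg3, Plagl1, H19, Igf2, Cdkn1c, Grb10, Dlk1, Meg3 and Igf2r), taken by symbol from the 15176 genes of the deposited table, and all 10 were present. RNA came from 2 Steap4AKO libraries (replicates 2 and 3), from mice lacking the metalloreductase gene Steap4 in adipocytes, and from 4 Steap4f/f libraries (replicates 1, 2, 5 and 6), from mice with the floxed gene. Both groups received the high-fat diet. The sources used here give neither the Cre line nor the sex or age of the mice. Nor do the labels state that libraries came from different mice, so p-values measure only the spread between samples, which may be technical. Values are normalized counts from DESeq2.

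An imprinted gene is transcribed mainly from the allele of a single parent. As background, many paternally expressed genes, such as the growth factor gene Igf2, promote fetal growth, and many maternally expressed ones, such as the growth-restraining adaptor gene Grb10, the cell cycle inhibitor gene Cdkn1c and the IGF2-clearing receptor gene Igf2r, restrain it. In fat, Dlk1 (also called Pref-1) is known as a preadipocyte gene that holds back adipocyte differentiation. The libraries did not measure which parental allele a transcript came from.

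Some members carry microRNAs within their transcripts. Those that lie within annotated exons of H19 and Meg3, the long noncoding members of the set, are shown because their bases are part of the host transcript; mature microRNAs themselves were not measured. Sequences are from RefSeq on GRCm38.p6, and capitals mark the seed, bases 2 to 8. miR-675-5p (chr7:142577112-142577133, minus strand) and miR-675-3p (chr7:142577078-142577099, minus strand) lie in H19, and miR-1906 (chr12:109544588-109544609, plus strand), miR-770-5p (chr12:109563710-109563731) and miR-770-3p (chr12:109563744-109563765) lie in Meg3. No seed was shared among these 5.
mmu-miR-675-5p: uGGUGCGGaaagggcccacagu
mmu-miR-675-3p: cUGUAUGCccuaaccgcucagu
mmu-miR-1906: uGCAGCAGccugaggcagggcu
mmu-miR-770-5p: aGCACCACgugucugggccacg
mmu-miR-770-3p: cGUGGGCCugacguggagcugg

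Promoter windows of 250 bases before the RefSeq start were available for 8 members, 13 windows in all, and not for H19 or Cdkn1c. They were searched on both strands for GGGGCCCC, the core of the sequence bound by PLAGL1, the zinc finger factor encoded by the member Plagl1. This motif is its own reverse complement. It was found in 1 of the 13 windows, that of Peg3, where it began 201 bases before the start, and in 292 of all 32851 windows of the same length (0.889%). A match is a description and not a binding site. The windows of Dlk1 (chr12:109452573-109452822, plus strand; 8 CpG), the protein-coding member with the lowest values in Steap4AKO, of Nnat (chr2:157559828-157560077, plus strand; 12 CpG), the member with the highest values, and of Peg3 (chr7:6730420-6730669, minus strand; 8 CpG) are shown, with the motif in capitals. All windows of the reference had a median of 6 CpG.
Dlk1: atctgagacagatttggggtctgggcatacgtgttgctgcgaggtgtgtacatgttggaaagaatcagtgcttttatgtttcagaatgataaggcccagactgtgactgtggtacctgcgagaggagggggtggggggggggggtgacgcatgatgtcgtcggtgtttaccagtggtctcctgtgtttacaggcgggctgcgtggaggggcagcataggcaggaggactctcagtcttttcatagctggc
Nnat: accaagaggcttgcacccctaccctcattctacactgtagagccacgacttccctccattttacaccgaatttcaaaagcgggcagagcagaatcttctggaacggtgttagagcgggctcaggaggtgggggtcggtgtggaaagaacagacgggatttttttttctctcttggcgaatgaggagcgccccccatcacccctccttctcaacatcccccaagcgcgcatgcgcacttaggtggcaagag
Peg3: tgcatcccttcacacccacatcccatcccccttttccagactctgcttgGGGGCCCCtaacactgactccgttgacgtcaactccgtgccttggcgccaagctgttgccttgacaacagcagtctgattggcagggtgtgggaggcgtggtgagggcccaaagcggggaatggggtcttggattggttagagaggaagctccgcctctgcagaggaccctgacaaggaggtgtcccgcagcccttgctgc

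The table summed to 16573561 and 17979641 in the Steap4AKO libraries and to 18846321 to 20547925 in the Steap4f/f libraries. Steap4 itself stood at 8313 and 8014 in Steap4AKO and between 8310 and 17018 in Steap4f/f, so that its level in whole tissue did not check the genotype labels. Steap4AKO replicate 2 stood apart, where 1080 genes exceeded all other libraries by more than 2-fold, against 20 to 148 such genes in each of the others. The 3 epididymis markers in the table summed to 9254 there and to at most 3.34 elsewhere, 12 mesothelial and visceral markers to 4082 against 262.1 to 889.6, and 8 macrophage markers to 25997 against 7061 to 7856. Its subcutaneous depot markers summed to 415.0, against 1799 in Steap4AKO replicate 3 and 2788 to 2990 in Steap4f/f. Tbx15, a gene of subcutaneous fat, was at 1.37 in it, at 316.1 in Steap4AKO replicate 3 and at 660.8 to 1330 in Steap4f/f. In Steap4AKO replicate 3, 3 of the 8 depot markers were below every Steap4f/f library, against 23.4% of all genes, and 5 lay within their range. Crisp1, an epididymis gene, was at 8127 in Steap4AKO replicate 2 and at 3.34 or less elsewhere. The markers of Steap4AKO replicate 2 thus go against its iWAT label, so that the label is in doubt for 1 of the 2 Steap4AKO libraries and a Steap4AKO mean may not stand for iWAT alone. Log2 differences without it are given for the members and for some of the other genes. Skeletal muscle markers were low in both Steap4AKO libraries, where all 16 markers summed to 2312 and 19400, against 153342 to 828883 in Steap4f/f. In limma 7 of the 16 were called lower, against 0.433% of all genes. Without Steap4f/f replicate 1 the number of markers called was 10. It was 0 without any 1 of Steap4f/f replicates 2, 5 and 6, where only 1 gene was called over the whole table. In bulk tissue, fewer cells of a type and less RNA per cell cannot be told apart. Adipocyte markers were present in every library, with Adipoq, the adiponectin gene, at 21862 or more.

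H19 and Dlk1 were the members with the largest differences, and both were lower in the 2 Steap4AKO libraries than in any Steap4f/f library. None of the 10 members passed an adjusted p of 0.05 in limma, against 71 of the 15006 genes tested (0.473%), of which 65 were lower (0.433%) and 6 higher (0.04%), and 3 members (H19, Dlk1 and Plagl1) had an unadjusted p under 0.05, against 18.1% of all genes. The 2 members lower without overlap stand against 14.4% of all genes lower in this way, and 0 members were higher without overlap, against 14.1% of all genes, so neither count is far from the background. Of the members 5 had a higher and 5 a lower mean log2 value, with a median difference of -0.11 against 0.02 over all genes tested. Steap4AKO replicate 2 was below every Steap4f/f library for Nnat, H19, Cdkn1c and Dlk1 (28.6% of all genes), and above all of them for Igf2r (31.5% of all genes). Steap4AKO replicate 3 was below all of them for H19 and Dlk1 (23.4% of all genes), and above all of them for Nnat, Plagl1 and Grb10 (24.4% of all genes). Without Steap4AKO replicate 2 the log2 differences were 1.37 for Plagl1, 0.70 for Peg3, 0.26 for Grb10, 0.18 for Igf2, -0.20 for Meg3 and -0.25 for Cdkn1c, and 0 members passed the threshold.

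**Figure D1:**
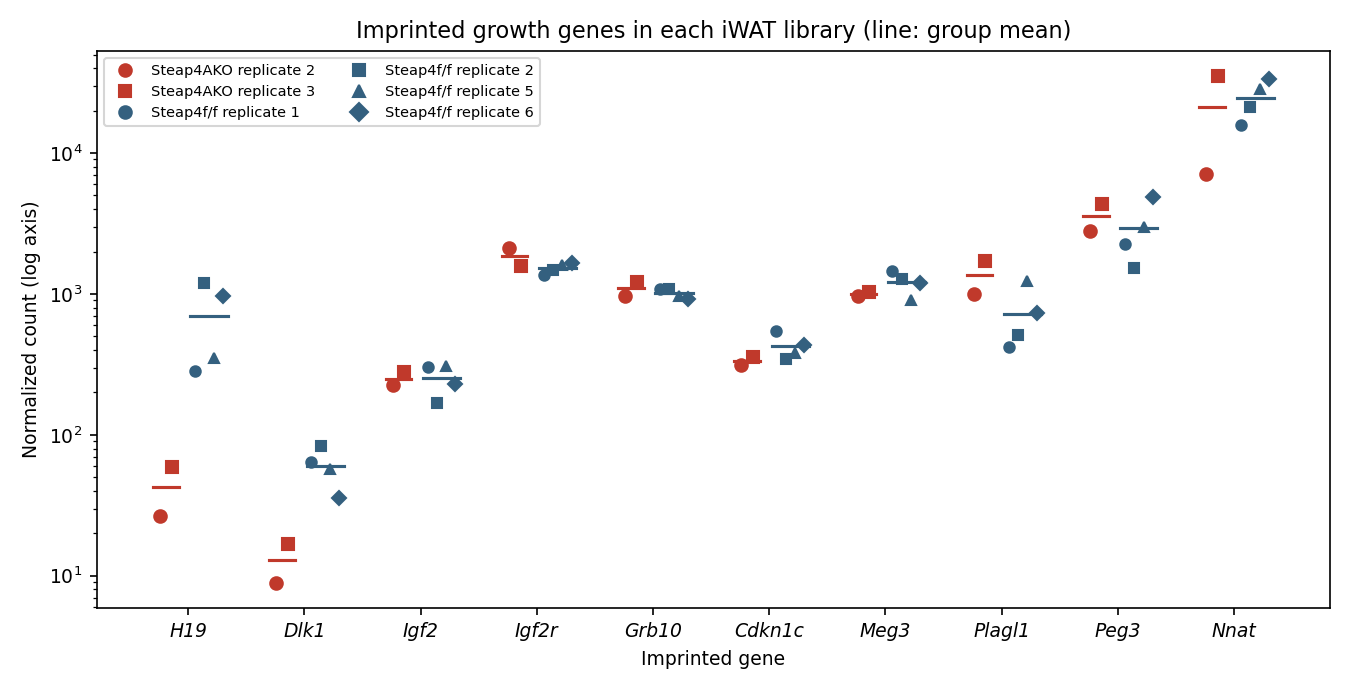
Normalized counts of the 10 genes on a log axis, 1 point per library, with Steap4AKO in red left of Steap4f/f in blue and a line at each group mean. H19 and Dlk1 are the genes whose groups do not overlap, and the Steap4AKO points of Nnat lie at 7064 and 35180, outside the Steap4f/f range on both sides.

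H19 (ENSMUSG00000000031; chromosome 7, 142575529 to 142578143, minus strand, GRCm38) is a maternally expressed long noncoding RNA, abundant in the fetus and also expressed in adult skeletal muscle. Its normalized count was 26.6 and 59.0 in Steap4AKO, against 284.3, 1187, 349.8 and 966.4 in Steap4f/f. Both Steap4AKO libraries lay below the lowest Steap4f/f library, and the Steap4f/f libraries split into a lower pair (replicates 1 and 5) and a higher pair (replicates 2 and 6). The mean was 16.3-fold lower in Steap4AKO, 42.8 ± 22.9 (SD, n = 2), than in Steap4f/f, 696.9 ± 448.6 (SD, n = 4). The log2 difference was -3.84 (SE 0.63, 95% interval -5.30 to -2.38) and the limma adjusted p was 0.0527, just outside the threshold. Without Steap4AKO replicate 2 the log2 difference was -3.28 (limma adjusted p = 0.285), and without Steap4f/f replicate 1 it was -4.18 (limma adjusted p = 0.0234).

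Skeletal muscle markers moved with H19. An index of muscle, the mean over 16 markers of the value as a percentage of the Steap4f/f mean, was 1.28 and 4.44% in Steap4AKO, against 24.3, 103, 75.2 and 197% in Steap4f/f replicates 1, 2, 5 and 6. H19 on the same percentage scale stood at 3.82 and 8.47% in Steap4AKO and at 40.8, 170, 50.2 and 139% in Steap4f/f. The libraries lowest in muscle markers were thus also lowest in H19, within each genotype and across them, with the exception that Steap4f/f replicate 2 had more H19 than replicate 6. All 16 markers had lower means in Steap4AKO, 13 without overlap, where 14.4% of all genes were lower in this way, and the slow myosin Myh7 was at 0 in Steap4AKO replicate 3 and in Steap4f/f replicate 1. With log2 of this index as a covariate, added after seeing the data, the H19 log2 difference was -0.56 (SE 0.97, limma adjusted p = 0.883). Both Steap4AKO libraries lay at the low end of the index, so that genotype and index cannot be told apart in these 6 libraries.

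**Figure D2:**
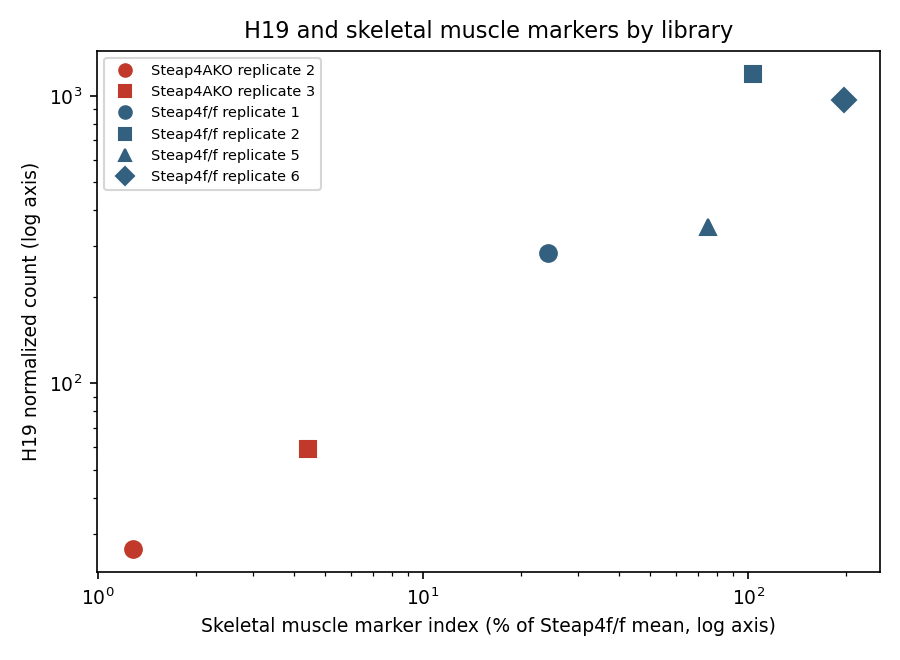
H19 normalized count against the skeletal muscle marker index of each library, both on log axes, with Steap4AKO in red and Steap4f/f in blue. The Steap4AKO libraries lie at the lower left, at 26.6 and 59.0 counts and 1.28 and 4.44% of the Steap4f/f mean index.

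Igf2, the paternally expressed gene of insulin-like growth factor 2, lies 72.6 kb from H19 (chromosome 7, 142650766 to 142666816, minus strand) and shares enhancers with it. It had 224.0 and 277.4 in Steap4AKO, against 302.2, 167.7, 309.6 and 230.6 in Steap4f/f. The Steap4AKO values lay inside the Steap4f/f range, and Steap4f/f replicate 2, which had the most H19, had the least Igf2. The log2 difference was 0.02 with a 95% interval of -0.65 to 0.70 (limma adjusted p = 0.975), and its sign changed when single libraries were left out. The annotated exons of Igf2 share 3596 bases, 62.8% of their merged length, with the protein-coding gene Gm49394 on the same strand. Gm49394 is absent from the deposited table, so that the assignment of Igf2 reads is uncertain.

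The log2 ratio of H19 to Igf2 was -3.03 and -2.21 in Steap4AKO, against -0.09, 2.82, 0.18 and 2.06 in Steap4f/f. The groups did not overlap, and the mean difference was -3.86. The exact permutation test, two-sided, gave p = 0.0667, the smallest p that 2 against 4 libraries allow (adjusted p = 0.1 over the 3 ratios computed).

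Igf2r, the maternally expressed receptor that carries IGF2 to lysosomes (chromosome 17, 12682406 to 12769664, minus strand), had 2135 and 1588 in Steap4AKO, against 1359, 1485, 1595 and 1671 in Steap4f/f. Steap4AKO replicate 2 was above every Steap4f/f library, while replicate 3 lay among them. The log2 difference was 0.27 (SE 0.16, limma adjusted p = 0.410), and 0.06 without Steap4AKO replicate 2. The log2 ratio of Igf2, the ligand, to Igf2r was -3.25 and -2.51 in Steap4AKO and between -3.14 and -2.17 in Steap4f/f, with a difference of -0.25 (exact permutation test, two-sided, p = 0.533).

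Grb10, whose adaptor protein dampens signalling of the insulin and IGF1 receptors (chromosome 11, 11930508 to 12038683, minus strand), had 974.4 and 1213 in Steap4AKO, against 1085, 1092, 963.5 and 913.5 in Steap4f/f. It was the steadiest member, with 88.6% of all genes tested having a larger range over the 6 libraries on the log2 scale. The groups overlapped, with a log2 difference of 0.11 and a 95% interval of -0.25 to 0.46 (limma adjusted p = 0.745).

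Cdkn1c, encoding the cyclin-dependent kinase inhibitor p57 (chromosome 7, 143458339 to 143461050, minus strand), lies in the neighbouring imprinted domain, 880.2 kb from H19. Its counts were 314.3 and 354.2 in Steap4AKO, against 547.1, 344.2, 383.2 and 431.6 in Steap4f/f. The Steap4AKO libraries were at the low end, but Steap4f/f replicate 2 lay between them. The log2 difference was -0.33 (SE 0.22, limma adjusted p = 0.454). An antisense gene, Gm44732, overlaps 625 bases of its exons and is absent from the deposited table. Since the sources used here do not say whether strand was kept, reads of the pair cannot be told apart.

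**Figure D3:**
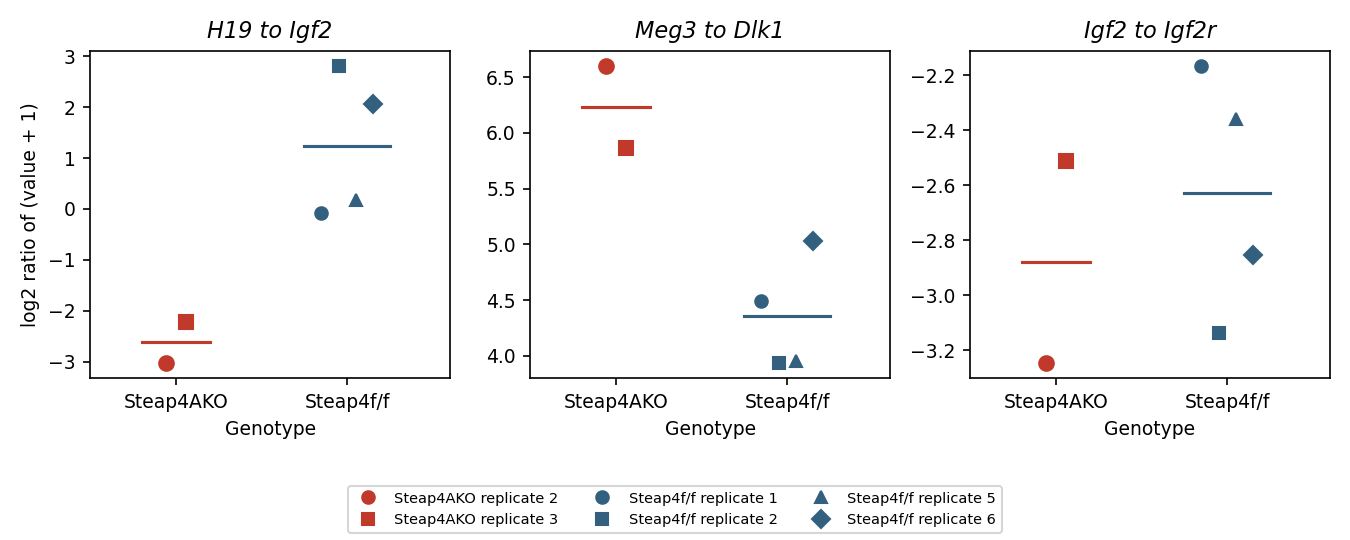
Log2 ratios of (value + 1) for 3 pairs of members, 1 point per library with lines at the group means, Steap4AKO left of Steap4f/f; each panel has its own axis range. The H19 to Igf2 and Meg3 to Dlk1 ratios do not overlap between genotypes, while the Igf2 to Igf2r ratio does.

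Dlk1 (ENSMUSG00000040856; chromosome 12, 109452823 to 109463336, plus strand) encodes a transmembrane and shed protein with repeats like those of epidermal growth factor. It had 9.0 and 16.8 in Steap4AKO, against 63.8, 83.2, 57.1 and 35.5 in Steap4f/f. Both Steap4AKO libraries lay below every Steap4f/f library. The mean was 4.65-fold lower, 12.9 ± 5.57 (SD, n = 2) in Steap4AKO against 59.9 ± 19.6 (SD, n = 4) in Steap4f/f, with a log2 difference of -2.13 (SE 0.51, 95% interval -3.32 to -0.94, limma adjusted p = 0.107). These are low counts, so that single values are imprecise, and the difference was -1.71 without Steap4AKO replicate 2 (limma adjusted p = 0.452). Of 11 adipose progenitor markers, 3 were lower without overlap (Pi16, Ly6a and Pdgfra), against 14.4% of all genes, and 1 was higher (Pdgfrb), against 14.1%. None passed the threshold in limma, against 0.473% of all genes, and 2 had an unadjusted p under 0.05, against 18.1%. Pi16 had 866.5 and 2026 in Steap4AKO, against 2784, 3962, 3286 and 2568 in Steap4f/f (log2 difference -1.23, limma adjusted p = 0.132). The markers summed to 25860 and 28619 in Steap4AKO and to 25204 to 34445 in Steap4f/f, a sum of which Col15a1 made up the largest share, and their part in the Dlk1 values was not tested. With log2 of the muscle index as a covariate the Dlk1 difference was -2.28 (SE 1.35, limma adjusted p = 0.632). As for H19, genotype and index cannot be told apart in these 6 libraries.

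Meg3, a maternally expressed long noncoding RNA, lies 77.7 kb from Dlk1 (chromosome 12, 109541001 to 109571726, plus strand). It had 966.8 and 1039 in Steap4AKO, against 1457, 1286, 899.1 and 1195 in Steap4f/f. The groups overlapped through Steap4f/f replicate 5, and the log2 difference was -0.25 (SE 0.20, limma adjusted p = 0.535). The log2 ratio of Meg3 to Dlk1 was 6.60 and 5.87 in Steap4AKO, against 4.49, 3.94, 3.95 and 5.03 in Steap4f/f, higher without overlap by 1.88 on average (exact permutation test, two-sided, p = 0.0667, adjusted p = 0.1). The noncoding neighbours downstream of Meg3 overlapped between groups as well, with Rian at 362.1 and 306.3 in Steap4AKO and 276.0 to 724.6 in Steap4f/f, and Mirg at 19.3 and 27.5 in Steap4AKO and 12.3 to 30.9 in Steap4f/f.

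Plagl1, which encodes a zinc finger transcription factor known in mice to act on other imprinted genes (chromosome 10, 13060504 to 13131694, plus strand), was the member with the largest higher mean. It had 999.0 and 1726 in Steap4AKO, against 421.7, 515.2, 1228 and 735.0 in Steap4f/f. Steap4AKO replicate 3 was the highest library, while Steap4f/f replicate 5 lay between the Steap4AKO libraries. The mean was 1.88-fold higher in Steap4AKO, with a log2 difference of 0.98 (SE 0.42, 95% interval 0.01 to 1.95), and the limma adjusted p of 0.273 missed the threshold. Without Steap4f/f replicate 5 its groups no longer overlapped.

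Peg3, a paternally expressed zinc finger gene linked in mice to growth and maternal behaviour (chromosome 7, 6703892 to 6730431, minus strand), had 2801 and 4335 in Steap4AKO, against 2253, 1537, 2981 and 4890 in Steap4f/f. Both Steap4AKO values lay within the Steap4f/f range, which spanned 3.18-fold. The log2 difference was 0.39 (SE 0.42, limma adjusted p = 0.651). Its maternally expressed neighbour Zim1, 7.44 kb away, had 130.5 and 336.8 in Steap4AKO, against 78.2, 105.0, 217.9 and 400.7 in Steap4f/f, and was like Peg3 highest in Steap4f/f replicate 6.

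Nnat, the neuronatin gene, encodes a small membrane protein of the endoplasmic reticulum and lies within the gene Blcap on the other strand (chromosome 2, 157560078 to 157562522, plus strand). It had 7064 and 35180 in Steap4AKO, against 15719, 21214, 28593 and 33343 in Steap4f/f. The Steap4AKO libraries were thus the lowest and the highest of the 6, and differed 4.98-fold from each other. The log2 difference was -0.59 (SE 0.59, limma adjusted p = 0.622) with both libraries and 0.57 without Steap4AKO replicate 2. Blcap had 1575 and 2938 in Steap4AKO, against 2819, 2797, 3203 and 3433 in Steap4f/f, and its lowest library was also Steap4AKO replicate 2. Adipocyte markers in that library went both ways: of 12, 8 were below every Steap4f/f library, against 28.6% of all genes. Above all of them were 2 (Lep and Lpl), against 31.5% of all genes, and 2 lay within their range. Pparg, the master regulator of adipocyte differentiation, was at 2497 there and at 3793 or more elsewhere, while Lep, the leptin gene, was at 55202 there and at 8106 to 43434 elsewhere. The 12 markers summed to 568255 there and to 822389 in Steap4AKO replicate 3, against 771917 to 887040 in Steap4f/f, and their part in the Nnat value was not tested.

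**Figure D4:**
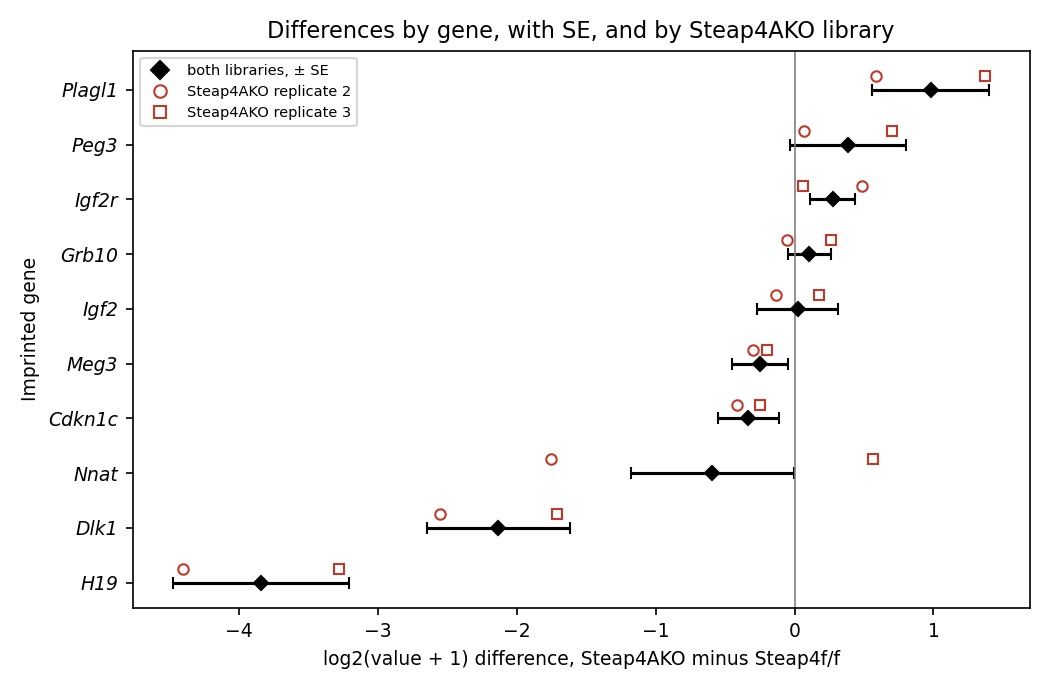
Log2(value + 1) differences, Steap4AKO minus Steap4f/f, for the 10 genes, with black diamonds and SE bars for both Steap4AKO libraries and open red symbols for each Steap4AKO library against the Steap4f/f mean. H19 (-4.40 and -3.28) and Dlk1 (-2.55 and -1.71) lie far to the left in both libraries, and the libraries lie on opposite sides of 0 for Nnat, Igf2 and Grb10.

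Levels were compared between members per kilobase of merged annotated exons. Nnat was the highest in Steap4f/f, at 13514 ± 4266 per kilobase (SD, n = 4), far above H19 at 283.3 ± 182.3, Peg3 at 218.8 ± 108.3 and Cdkn1c at 209.2 ± 43.2, whose ranges overlapped. Igf2r followed at 164.1 ± 14.6, then Grb10 at 111.5 ± 9.79, Plagl1 at 92.7 ± 46.1, Meg3 at 66.9 ± 12.9 and Igf2 at 44.1 ± 11.7, with Dlk1 the lowest at 10.6 ± 3.47. In Steap4AKO the level of H19 per kilobase was 17.4 ± 9.32 (SD, n = 2), which placed it at rank 9 of the 10. Dlk1 was the lowest there as well, at 2.28 ± 0.98. The order depends on the length used. Meg3 ranked seventh in Steap4AKO and eighth in Steap4f/f by merged exons, and second in both by the median length of its basic annotated transcripts. Igf2r had rank 3 in Steap4AKO and rank 5 in Steap4f/f by merged exons, but rank 6 in Steap4AKO and rank 8 in Steap4f/f by transcript length. H19 had rank 9 in Steap4AKO by either length, and in Steap4f/f rank 2 by merged exons and rank 4 by transcript length. Within Steap4f/f, 7.79% of genes varied more than H19 on the log2 scale (SD 1.03) and 84.1% varied more than Igf2r (SD 0.13), against a median SD of 0.28 over all genes tested.

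The wider imprinted set was not called either. Of 28 other genes listed as paternally expressed, 18 were in the table, and of 28 other genes listed as maternally expressed 23 were. Allele use in fat was not measured, so the list names do not show parental expression in these libraries. Their median log2 differences were -0.0008 and -0.03, and 0 of the 41 passed the threshold in limma, against 0.473% of all genes, while 7 had an unadjusted p under 0.05, against 18.1% of all genes. The largest differences among those with a mean of at least 50 were those of Slc38a4 and Mest in the paternal list and of Klf14 and Kcnq1 in the maternal list. Slc38a4, an amino acid transporter gene, had 76.4 and 26.8 in Steap4AKO, against 221.6, 582.8, 397.8 and 930.1 in Steap4f/f (log2 difference -3.34, limma adjusted p = 0.06), without overlap and lowest in Steap4AKO replicate 3. Mest, a paternally expressed gene known to mark expanding fat, had 23674 and 19200 in Steap4AKO, against 780.6, 4983, 5902 and 5433 in Steap4f/f (log2 difference 2.67, limma adjusted p = 0.153), higher without overlap. Klf14, a maternally expressed transcription factor gene, had 396.1 and 339.5 in Steap4AKO, against 67.1, 57.5, 132.0 and 49.7 in Steap4f/f (log2 difference 2.35, limma adjusted p = 0.0536), also without overlap. Without Steap4AKO replicate 2 these log2 differences were -4.08, 2.52 and 2.24 in the same order. Kcnq1, a potassium channel gene beside Cdkn1c, overlapped between groups, with 56.4 and 27.6 in Steap4AKO and 18.8 to 416.9 in Steap4f/f.

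**Figure D5:**
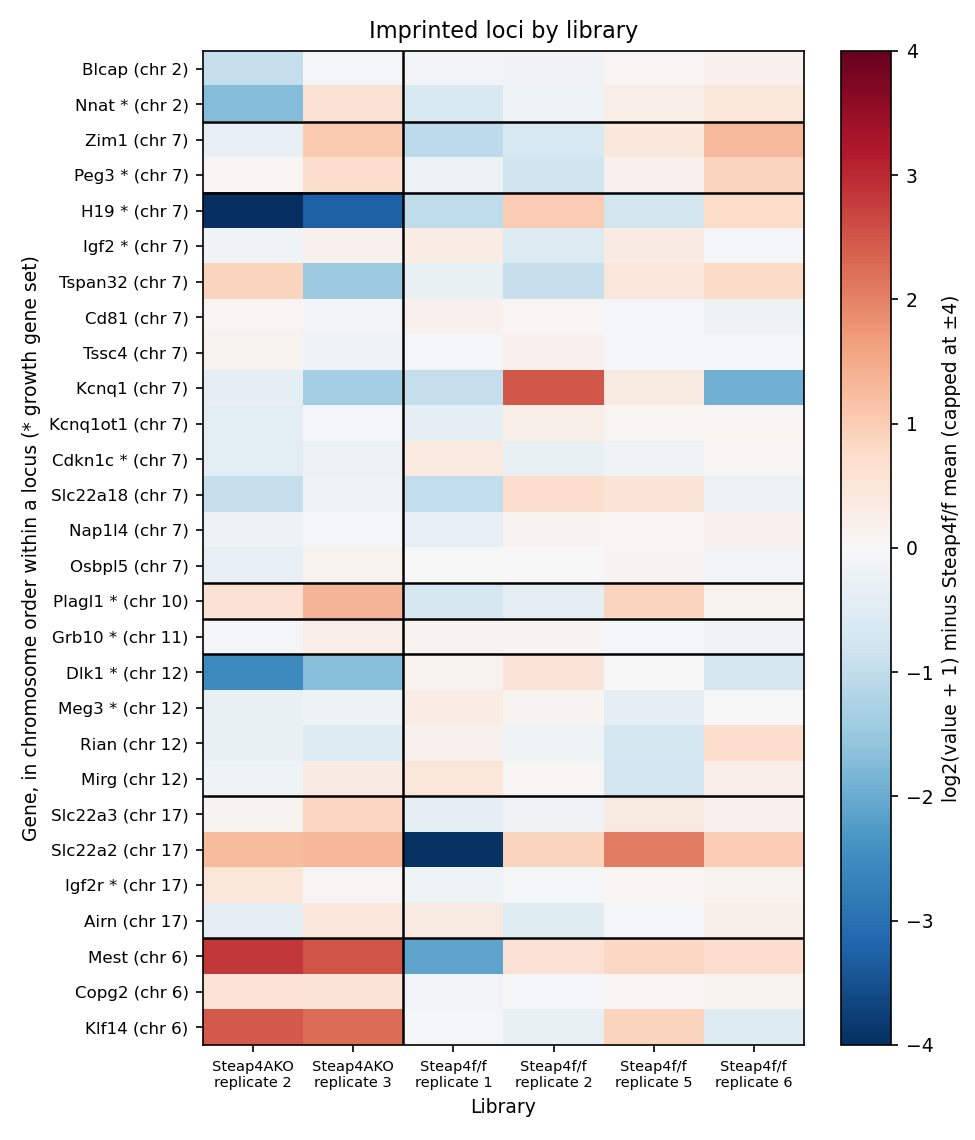
Log2(value + 1) minus the Steap4f/f mean for genes of 8 imprinted loci, in chromosome order within each locus, with columns for the Steap4AKO libraries left of the Steap4f/f libraries and colours capped at 4 in either direction; asterisks mark the 10 growth genes. H19 and Dlk1 are blue in both Steap4AKO columns while Igf2 and Meg3 beside them are pale, and Mest and Klf14 are red in both.

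Partner genes of the members were read from lists. In the IGF and insulin list 20 of 23 genes were in the table and 18 were tested. In limma 0 passed the threshold, against 0.473% of all genes, and 4 had an unadjusted p under 0.05, against 18.1%. Igfbp3, which encodes an IGF-binding protein, had 858.2 and 815.5 in Steap4AKO, against 464.2, 479.6, 424.6 and 365.2 in Steap4f/f, higher without overlap by a log2 difference of 0.96 (SE 0.17, limma adjusted p = 0.0572). Stc1, a stanniocalcin gene, had 143.8 and 88.0 in Steap4AKO, against 62.6, 62.6, 56.0 and 33.8 in Steap4f/f (log2 difference 1.09, limma adjusted p = 0.222). Without Steap4AKO replicate 2 the log2 difference was 0.92 for Igfbp3 and 0.74 for Stc1. Igf1, the related hormone gene, had 3102 and 2669 in Steap4AKO and 2705 to 5561 in Steap4f/f.

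Of 15 measured Notch pathway genes and other partners of DLK1, 14 had a higher mean in Steap4AKO, 6 of them without overlap, where 14.1% of all genes were higher in this way, and the median log2 difference was 0.59 against 0.02 over all genes. None passed the threshold in limma, and 7 had an unadjusted p under 0.05, against 18.1% of all genes. Endothelial markers went both ways: of 8, 5 had a higher and 3 a lower mean log2 value, with a median difference of 0.08. Of the 8, 3 were higher without overlap (Tek, Tie1 and Cdh5, by log2 differences of 0.44, 0.31 and 0.26), against 14.1% of all genes. In this way 0 were lower, against 14.4% of all genes. Cldn5 differed by -0.26, Vwf by -0.23 and Emcn by -0.01. The 8 markers summed to 23628 and 25688 in Steap4AKO, against 22354 to 22752 in Steap4f/f. Their part in the Notch values was not tested. Heyl, a Notch target gene, had 512.6 and 589.3 in Steap4AKO, against 85.5, 241.6, 441.0 and 280.0 in Steap4f/f (log2 difference 1.29, limma adjusted p = 0.280). Without Steap4AKO replicate 2 the Heyl log2 difference was 1.39. Sox9, a progenitor factor gene that DLK1 is known in mice to induce, had 232.0 and 25.7 in Steap4AKO, against 25.7, 12.1, 16.7 and 25.4 in Steap4f/f, so that its log2 difference of 1.97 rested on Steap4AKO replicate 2 and was 0.41 without it.

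Cyclin-dependent kinase inhibitors related to Cdkn1c gave 0 calls in limma among 5 tested, against 0.473% of all genes. Of these 5, 0 had an unadjusted p under 0.05, against 18.1% of all genes. Cdkn2c had 2027 and 2735 in Steap4AKO and 2282 to 4017 in Steap4f/f, and Cdkn2d 160.8 and 159.0 in Steap4AKO and 145.9 to 258.7 in Steap4f/f. Of 16 genes that set or keep imprints, all were measured, with 0 calls in limma, against 0.473% of all genes. At an unadjusted p under 0.05 there was 1, against 18.1% of all genes. That gene was Dnmt3a, a de novo DNA methyltransferase, with 1471 and 942.6 in Steap4AKO, against 628.1, 760.0, 871.4 and 673.4 in Steap4f/f (log2 difference 0.69, limma adjusted p = 0.178). Without Steap4AKO replicate 2 the Dnmt3a log2 difference was 0.37. Uhrf1, a cofactor of maintenance methylation, had 214.3 and 90.2 in Steap4AKO and 41.1 to 103.5 in Steap4f/f.

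For each member the genes of most similar pattern were sought by the root-mean-square distance between centred log2 profiles over the 6 libraries, among 12323 genes. For H19 these were Alpk3, a muscle kinase gene, at a distance of 0.24, and Pfkm, the muscle phosphofructokinase gene, at 0.31, whereas its nearest member, Dlk1, lay at 1.16. Alpk3 had 24.2 and 51.3 in Steap4AKO, against 213.7, 716.9, 343.3 and 929.1 in Steap4f/f. For Dlk1 they were Gm42715 and Itm2a, both at 0.30, and for Nnat they were Fbxo27 at 0.18 and Cd164l2 at 0.24. Peg3 was nearest to Epn2 (0.18) and BC052040 (0.19), and Plagl1 to Mtbp (0.14) and Atp2a3 (0.20). Igf2 was nearest to Zbtb49 and Rrp36, Cdkn1c to Osgin2 and C4b, Grb10 to Nck1 and Serpina3c, Meg3 to Gjc1 and Sec62, and Igf2r to Jak1 and Aaas, at distances of 0.03 to 0.09. Other members were not candidates in this search. Between members, the smallest distance was 0.21, for Cdkn1c and Meg3. A flat profile lay at 0.26 from Cdkn1c, 0.24 from Meg3, 0.20 from Igf2r and 0.14 from Grb10, against 1.98 from H19. Small distances of steady genes thus say less about a shared pattern.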

How the data were processed

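RNA extraction used a kit made for fatty tissue and a company did the sequencing, per the labels' protocols. Per the submitters' processing notes, the authors used DESeq2 1.12.4, RSEM 1.3.3, STAR 2.7.0e and R 4.2.0, with the builds mm10 and GRCm38. Which tool did what, and which gene models it used, the sources used here do not give. The values the authors deposited are a signal: counts per gene after DESeq2 normalization, as the table is named. Values were not whole multiples of a step (47.9 to 57.7% of low values within 0.1), so whole reads were not recovered and count tests were left out; the depth is unknown beyond the sums of the table.

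Symbols came from GENCODE M21, which matched 15125 genes, and 51 had none. Differences are Steap4AKO minus Steap4f/f on log2(value + 1), tested with limma 3.58.1 in R 4.3.3 (variance trend, 2 groups, no covariate) over 15006 genes with a mean of at least 10, with Benjamini-Hochberg adjustment over all of them and a threshold of 0.05. Ratios were compared by exact permutation over libraries. Members and lists were chosen with earlier results of these data known. Besides the members, genes named were, by rule, called list members, the 2 with the largest difference in each partner list with a mean of at least 50, and the 2 nearest patterns; the other markers, neighbours and genes named were chosen after their values were seen. Simulated tables of this comparison (14520 to 14544 genes) served to check the fit: of simulated 2-fold changes 30% were called, of 8-fold changes 89.3%, and each run made 6.67 false calls on average. The simulated SD of a gene was capped at 1 log2 unit, noise was independent between genes and libraries, and only genes with a mean of at least 50 were changed. These rates may thus be too high for genes that vary more, and they do not cover genes with lower means, such as Dlk1. Alternatives were other pseudocounts, filters, scalings, weights, priors and thresholds, and each library left out.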

Additional observations from a re-analysis of the deposited data

How the results depend on the processing

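H19, Dlk1, Cdkn1c, Meg3, Peg3, Plagl1 and Igf2r kept their direction under every alternative run, with Dlk1 not tested at a minimum mean of 50. H19 differed by -4.40 to -0.56 with limma adjusted p-values of 0.0234 to 0.883. No member was called in limma except H19, with a pseudocount of 5 (1 member), at a threshold of 0.1 (1 member) and without Steap4f/f replicate 1 (0 to 1 members over libraries left out). Over libraries left out Nnat differed by -1.75 to 0.57, Igf2 by -0.16 to 0.18 and Grb10 by -0.052 to 0.26; a genotype left with 1 library is assumed to vary like the other. Nnat reversed to 0.57 without Steap4AKO replicate 2 and to 2.28 with the muscle covariate, Igf2 to -0.44 with the covariate and to -0.16, -0.01 and -0.13 without Steap4f/f replicate 2, Steap4f/f replicate 6 and Steap4AKO replicate 3, and Grb10 to -0.052 without Steap4AKO replicate 3; the cause was not tested. With the covariate Plagl1 differed by 2.40 (SE 0.94, limma adjusted p = 0.551) and Peg3 by 1.81 (SE 0.93, limma adjusted p = 0.601). The Nnat value of 2.28 with the covariate had an SE of 1.00 (limma adjusted p = 0.561). The ratio of Igf2 to Igf2r differed by -0.62 to 0.12 over libraries left out, with 0.12 without Steap4AKO replicate 2, that of H19 to Igf2 by -4.31 to -3.34 and that of Meg3 to Dlk1 by 1.51 to 2.25. Giving each library the same total moved the median over all genes by 0.18, and 2 members, Grb10 and Igf2r, were then higher without overlap. The share over all genes at the same total is not given here. Over libraries left out 0 to 3 members were higher and 2 to 4 lower without overlap. The 3 higher came without Steap4AKO replicate 2, where 24.4% of all genes were higher in this way. The 4 lower came without Steap4AKO replicate 3, where 28.6% of all genes were lower. Genes called over the whole table numbered 1 with a pseudocount of 0.5, a mean of at least 50, a robust prior or the covariate, 123 with a pseudocount of 5, 119 with array weights, 410 at a threshold of 0.1 and 1 to 821 over libraries left out (821 without Steap4AKO replicate 3, 238 without Steap4f/f replicate 1, 1 without any other). Of the calls 91.5% were lower, but 44.6% without Steap4AKO replicate 3. Other imprinted genes called numbered 1 under quantile normalization, 1 with array weights, 2 at the threshold of 0.1 and 0 to 2 over libraries left out. No paired analysis was possible because the groups share only replicate number 2. The count tests planned for recovered whole reads were not run. Depth limits low genes such as Dlk1 most.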

Other observations

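At the imprinted locus of chromosome 6, Copg2, a coat protein gene that overlaps the end of Mest on the other strand, was higher without overlap as well, with 1663 and 1611 in Steap4AKO, against 1052, 1079, 1174 and 1252 in Steap4f/f (log2 difference 0.53, limma adjusted p = 0.117). Klf14 lies 207.6 kb from Mest. The 3 genes of this locus were thus all higher without overlap, as 14.1% of all genes were, and Steap4f/f replicate 1 stood lowest for Mest. Copg2 and the next genes are named after their values were seen.

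Gnas, the gene of the stimulatory G protein subunit, had 16253 and 20855 in Steap4AKO, against 25506, 26233, 23271 and 27096 in Steap4f/f, lower without overlap (limma adjusted p = 0.242). Commd1, which encodes a regulator of copper handling, had 451.0 and 442.2 in Steap4AKO, against 685.5, 617.9, 619.1 and 670.9 in Steap4f/f, lower without overlap (limma adjusted p = 0.132). Among the partners of Dlk1, the receptor gene Notch3 had 2667 and 3065 in Steap4AKO, against 1655, 1765, 2193 and 1862 in Steap4f/f (limma adjusted p = 0.112). The IGF-binding protein gene Igfbp6 went the other way from Igfbp3, with 1426 and 1081 in Steap4AKO, against 3165, 2664, 2129 and 1608 in Steap4f/f (limma adjusted p = 0.164).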
